A study of Mus musculus with 661 samples.

Results

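Sinusoidal endothelial cells (SEC) sorted from the central marrow of young and old mice were compared across the genome. The members were all cells whose labels read Young SEC or Old SEC, in every cluster and all from 1 stretch of library numbers. There were 141 of them, 70 young and 71 old, among 661 single cells of mesenchymal and endothelial populations in the series. The study asked how the bone marrow (BM) niche of stromal cells changes with age, and profiled these populations by plate-based single cell RNA sequencing (scRNAseq). Both ages were untreated wild-type C57BL/6 mice, with young mice of 6 to 12 weeks and old mice of 18 to 31 months, usually near 24 months. The study defines SEC as Ter-119-negative, CD45-negative, CD31-positive cells of the central marrow with low Sca-1 and high CD105. For its plate-based data it lists these cells as marrow endothelial cells (SEC), and calls them mostly SEC by index sorting. Whether the limits of Sca-1 and CD105 were applied to each cell is thus not known here. Endosteal cells labeled arteriolar endothelial cells (AEC), which the study defines by high Sca-1 and low CD105, were used beside them for comparison. These were the 24 young and 23 old AEC whose library numbers directly followed those of the SEC.

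Sinusoids are the wide, thin-walled and fenestrated venous vessels through which mature blood cells leave the marrow. Their endothelium is a scavenging tissue that clears hyaluronan, modified proteins and immune complexes from blood through endocytic receptors. It also displays adhesion molecules for circulating cells and releases factors that act on nearby hematopoietic cells.

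Each column of the table was 1 library of a sorted well, with 0 library numbers shared, and doublets were not called. Counts of nuclear genes per cell ran from 149085 to 487257 in young SEC, with a median of 314844, and from 71320 to 454362 in old SEC, with a median of 302201. The median number of genes with a count was 6280 in young and 5953 in old cells, and 4988 and 4674 after every cell was thinned to 100000 counts, which left out 1 old cell. The median mitochondrial share of counts was 1.41% in young and 1.36% in old cells. Depth and mitochondrial share were thus close between ages, while genes per cell were lower in old cells at equal depth.

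The labels did not name the mouse of a cell, so the cells of an age were 1 sample and the difference between ages has no replicate check. Levels are nuclear gene counts summed over cells and scaled to a common total (CPM), and differences are log2 old over young ratios with 1 CPM added to each level. Intervals are exact Poisson intervals for CPM and exact Clopper-Pearson intervals for shares of cells, at the 95% level. For a share of 0 the limit given is 3 counts of the total. Because PCR copies without molecular identifiers do not count molecules one by one, the intervals describe counting error and nothing else. Fewer cells that express a gene and less RNA of it per cell cannot be told apart in a summed level, and the share of cells carrying a gene (10 CPM or more in the cell) is given where it helps.

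The library numbers fell into 6 runs of 24, alternating between ages, which held 23, 23 and 24 young and 24, 23 and 24 old cells. They are called young runs 1 to 3 and old runs 1 to 3 in number order, and nothing in the labels says whether a run was a mouse, a plate or a date. A gene is said to have its runs apart when all 3 old runs lay on one side of all 3 young runs. A check of sex-linked genes set 0 of the 6 runs apart from the others.

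The label was first checked against markers. *Pecam1*, which encodes CD31, stood at 885, 708 and 530 CPM in the young runs and 768, 1086 and 853 CPM in the old runs, and was carried by 100% of young and 95.8% of old cells. *Eng*, which encodes CD105, was at 2403 CPM in young and 2263 CPM in old SEC. The runs of the ages overlapped for both genes. *Ptprc*, which encodes CD45, was at 0.137 and 3.04 CPM, and 84.1% of the old counts lay in 1 cell. Of 20 pan-endothelial genes the median cell carried 18 at both ages, and of 20 sinusoidal genes 16 at both ages. The 12 pan-leukocyte genes gave a median of 2 at both ages. At least 10 of the sinusoidal genes were carried by 70 of 70 young (100%, 94.9 to 100%) and 59 of 71 old cells (83.1%, 72.3 to 90.95%). The median cell therefore had the profile its label names at both ages, while 12 old cells fell short of it.

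Some libraries stood apart from the rest. Fewer than 10 of the 20 pan-endothelial genes were carried by 1 of 70 young cells (1.43%, 0.0362 to 7.70%) and 5 of 71 old cells (7.04%, 2.33 to 15.7%). All other cells carried at least 14. The young cell carried 19 of 20 marrow mesenchymal genes. Of the 5 old cells, 1 carried 12 of 12 pan-leukocyte genes with 2 pan-endothelial genes, 1 carried 18 mesenchymal genes, and 1 carried 8 of 12 pericyte and smooth muscle genes. The remaining 2 carried 10 and 9 of 10 megakaryocyte and platelet genes. These cells had passed the CD45 and Ter-119 gates, and their libraries held RNA of other lineages beside 2 to 11 of the 20 sinusoidal genes. Whether they were doublets was not tested.

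Megakaryocyte RNA was higher in old SEC, most of it in 3 cells. The 10 megakaryocyte and platelet genes summed to 27.2, 14.7 and 24.9 CPM in the young runs and to 660, 125 and 1978 CPM in the old runs. *Itga2b*, the CD41 integrin chain and the most abundant of them, was at 3.79 CPM (3.01 to 4.69) in young and 378 CPM (369 to 386) in old SEC. All 3 old runs lay above all 3 young runs. The 9 members that passed the filter on low genes had a median log2 ratio of 5.02, and 3 of them (*Itga2b*, *Gp1bb* and *Gp1ba*) were at least 2-fold higher with runs apart, beside 4.51% of all genes. The old cells with 10 and 9 of these genes held 65.1% and 22.3% of the old counts. At least 3 of the genes were carried by 8 of 71 old cells (11.3%, 4.99 to 21.0%) and by 0 of 70 young cells, which allows a share of up to 4.29%. After the 3 old cells with at least 9 of these genes and the cell with 12 pan-leukocyte genes were left out, a choice made after seeing the data, the median was 0.78. The log2 ratio of *Itga2b* was then 0.78 too, against 6.31 with all cells.

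Other blood markers were few. The pan-leukocyte list had a median of 2.00 over its 9 genes that passed the filter, with *Laptm5*, a lysosomal protein of blood cells, higher with runs apart, and a median of 0.08 without those 4 cells. Its summed level was 529, 377 and 527 CPM in the young runs and 462, 1168 and 709 CPM in the old runs, with *Srgn* the most abundant. Of 13 macrophage genes 3 passed the filter, with a median of 0.67. *Lyz2*, the lysozyme of myeloid cells, was at 0.270, 5.11 and 0.291 CPM in the young runs and 35.4, 24.2 and 209 CPM in the old runs, while *Adgre1* and *Marco* had no count. Neutrophil genes had a median of 1.28 over 3 genes that passed, and 98.6% of the old *Mpo* counts were in 1 cell. The neutrophil median was 0.13 with no filter and 0.54 without those 4 cells. Of the B and T cell list only *Ebf1*, also a gene of marrow stroma and endothelium, passed (1.34), and *Ms4a1*, *Vpreb3*, *Pax5* and *Cd3d* had no count. Erythroid genes had a median of -1.22 over 6 genes that passed, with 51.96% of the young *Hbb-bs* counts in 1 cell. Megakaryocyte RNA in old SEC was thus mainly that of a few cells. The cell with 12 pan-leukocyte genes held 30.4% of the old counts of the pan-leukocyte list. Macrophage RNA was also seen in E7, the main cluster described below, where *Lyz2* was higher with runs apart (2.28 and 26.8 CPM, with 87.8% of the young and 47.4% of the old counts in 1 cell) and 2 old cells carried at least 5 macrophage genes.

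The summed level of mesenchymal genes was lower. The 20 marrow mesenchymal genes summed to 9583, 10415 and 10937 CPM in the young runs and 7085, 4836 and 6711 CPM in the old runs, with *Cxcl12* (5519 and 3570 CPM) the larger part of the sum at both ages. At least 12 of them were carried by 13 of 70 young cells (18.6%, 10.3 to 29.7%) and 6 of 71 old cells (8.45%, 3.16 to 17.5%). All 20 passed the filter, 10 with a ratio above and 10 below 0. Their median was -0.24, and 0.012, -1.51 and -0.60 between runs of the same order, and 6 were at least 2-fold lower with runs apart, beside 2.59% of all genes. The list as a whole thus did not move in 1 direction, and the decline lay in some of its genes. Among these, *Lepr*, the leptin receptor of perivascular stroma, was at 593, 813 and 505 CPM in the young runs and 341, 230 and 223 CPM in the old runs. *Adipoq*, the adiponectin gene, was at 263 CPM in young and 64.8 CPM in old SEC. The 4 others were *Foxc1*, *Col1a2*, *Hp* and *Fbln1*. After cells with at least 7 mesenchymal or at least 4 pan-leukocyte genes were left out, which kept 49 young and 53 old cells, the ratios of *Lepr* and *Adipoq* were -0.13 and -0.16, and that of *Foxc1* was -1.05. Of the 6 genes, only *Foxc1*, a forkhead factor of marrow stroma, was also past the fold with runs apart within the E7 cells described next. Of the 20 mesenchymal genes, 13 are among the genes that guided the clusters, and *Foxc1* is not. Levels of those 13 genes within E7 were thus partly set by the clustering.

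The deposited clusters, numbered E1 to E7 for endothelial cells, differed in their shares between ages. The young runs had 18 of 23, 20 of 23 and 21 of 24 cells in E7, the largest cluster, and the old runs 17 of 24, 14 of 23 and 13 of 24. That made 78.3%, 87.0% and 87.5% against 70.8%, 60.9% and 54.2%, with every old run below every young run, although the intervals of single runs overlapped. Cluster E6 held 2 of 70 young (2.86%, 0.348 to 9.94%) and 12 of 71 old cells (16.9%, 9.05 to 27.7%). Clusters E3 to E5 together held 10 of 71 old cells (14.1%, 6.97 to 24.4%) and 0 of 70 young cells, which allows up to 4.29%. Cluster E1, whose cells carried a median of 17 mesenchymal genes in young SEC, held 9 young and 4 old cells. Fewer old than young sorted cells were thus of the main cluster, in each run. The study built these clusters on these same cells, so the genes that guided them are not separate results, and they are counted as guide genes below.

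**Figure D1:**
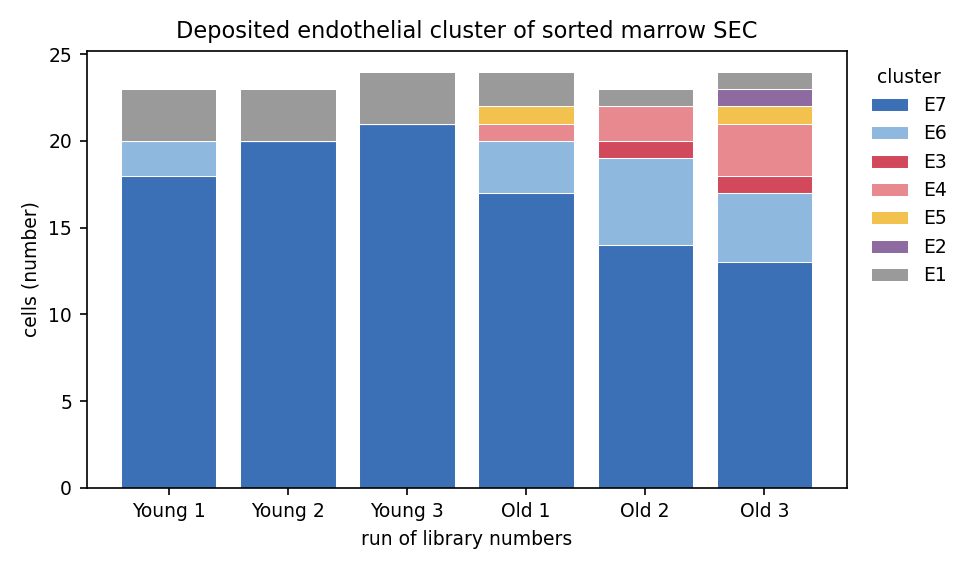
Number of sorted marrow SEC in each deposited endothelial cluster (y axis, cells) for the 3 young and 3 old runs of library numbers (x axis). E7 holds 18 to 21 cells in the young runs and 13 to 17 in the old runs.

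Across the genome, 12982 genes passed the filter of at least 100 counts over at least 5 cells, and their median log2 ratio was 0.05. Of these, 1701 were at least 2-fold higher and 982 at least 2-fold lower in old SEC. With runs apart the counts were 585 higher and 336 lower genes, that is 4.51% and 2.59% of the genes kept. Among E7 cells alone (59 young and 44 old) 11555 genes passed, with a median of 0.02, and 1333 were at least 2-fold higher and 1209 lower. With runs apart these were 348 and 384 genes, or 3.01% and 3.32%. Increases with runs apart outnumbered such decreases over all sorted SEC and not within E7. Both comparisons gave 166 higher genes, 28.4% of the higher genes over all SEC and 47.7% of those in E7. They gave 151 lower genes, 44.9% and 39.3% of the respective lists. The E7 cells are part of all sorted SEC, so the 2 comparisons share cells. Without the 4 old cells with megakaryocyte or leukocyte genes the counts over all SEC were 542 and 341.

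Genes of arteriolar identity rose as a group in old SEC. Of 24 genes fixed as arteriolar markers, 23 passed the filter, 22 had a log2 ratio above 0, and 9 were at least 2-fold higher and 1 lower with runs apart, beside 4.51% and 2.59% of all genes. The median was 2.22, against 0.05 over all genes, and 0.99, 1.25 and 2.09 between the runs of the same order. Their summed level was 2366, 2042 and 2011 CPM in the young runs and 4623, 4978 and 6535 CPM in the old runs. Every old run thus held more than 1.5 times the sum of any young run. Of the 24 genes, 19 are guide genes of the clusters.

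*Ly6a*, which encodes the sort marker Sca-1, was at 314, 186 and 117 CPM in the young runs and 469, 577 and 545 CPM in the old runs. The median cell had 102 CPM in young and 212 CPM in old SEC, while the share of carrying cells was 70.0% and 67.6%. The old runs were higher with no gain in the number of cells carrying the gene. *Ly6c1*, its neighbor in the Ly6 family, was at 97.7 CPM (93.6 to 102) in young and 457 CPM (448 to 467) in old SEC. *Efnb2*, the ephrin ligand that marks arterial endothelium, was at 15.6 and 89.8 CPM, and *Dll4*, an arterial Notch ligand, at 143 and 322 CPM. *Gja4*, a connexin of arterial gap junctions, was at 8.63, 0.262 and 0 CPM in the young runs and 58.98, 253 and 339 CPM in the old runs, and was carried by 1 young and 11 old cells (a ratio of 5.73, and 7.26 without the top cells). All 4 of these had runs apart. *Gja5*, another arterial connexin, had 84.5% of its old counts in 1 cell, and its log2 ratio fell from 5.30 to 2.94 without the top cell of each age. *Igfbp3*, a carrier of insulin-like growth factors, was the member that was lower, at 93.1 CPM in young and 24.4 CPM in old SEC.

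The arteriolar rise was not seen within E7, whose cells were assigned to it partly by these genes. Within E7 the 17 arteriolar genes that passed the filter had a median of -0.075 and summed to 1555 CPM in young and 1787 CPM in old cells. There *Ly6a* was at 192 and 208 CPM, *Ly6c1* at 60.2 and 110.4 CPM and *Dll4* at 155 and 187 CPM. Values of *Efnb2* were 12.4 and 7.58 CPM, and none of the genes was past the fold upward with runs apart. At least 14 of the 24 genes were carried by 7 of 71 old cells (9.86%, 4.06 to 19.3%), all in E3 and E4, and by 1 of 70 young cells (1.43%, 0.0362 to 7.70%), in E6. One of those old cells also carried 9 megakaryocyte genes with 19 arteriolar and 18 pan-endothelial genes. It was among the 4 old cells left out above, without which the arteriolar median was 1.29, so that step removed an arteriolar cell as well.

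**Figure D2:**
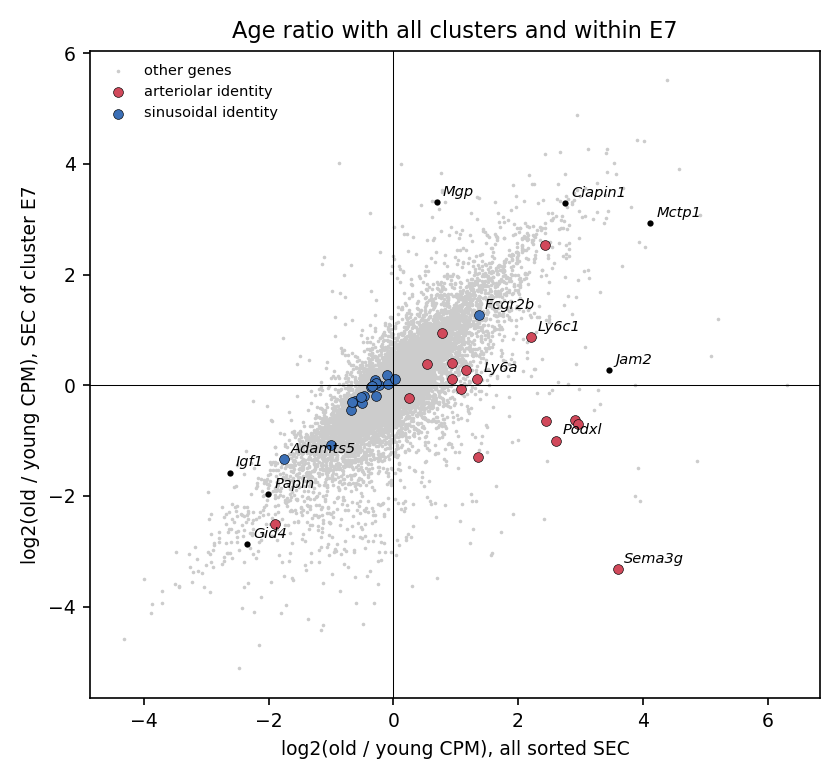
Log2 old over young ratio of CPM for each gene over all sorted SEC (x axis) and within cluster E7 (y axis), with genes of arteriolar identity in red, sinusoidal identity in blue and further named genes in black. Arteriolar genes such as *Sema3g* (3.60 and -3.32) spread to the right, while *Ciapin1* (2.75 and 3.28) and *Gid4* (-2.35 and -2.87) moved alike in both.

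Among 6529 genes with at least 20 CPM and carried by at least 25% of the cells of an age, 186 were higher and 129 lower past the fold with runs apart and without a dominant cell. The 12 with the largest increase were led by *Mctp1*, which encodes a calcium-binding protein with C2 domains. It was at 4.59, 5.63 and 2.62 CPM in the young runs and 108, 106 and 59.3 CPM in the old runs, a log2 ratio of 4.12. Carrying cells numbered 5 of 70 young (7.14%, 2.36 to 15.9%) and 22 of 71 old (30.99%, 20.5 to 43.1%), and 24.3% and 41.4% after thinning. The lowest old run was thus far above the highest young run. Within E7 its ratio was 2.92, with old runs at 26.9, 86.1 and 4.26 CPM, so that the runs overlapped there, and 63.5% of the old E7 counts were in 1 cell.

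Of the other large increases, *Sema3g* and *Podxl* were on the arteriolar list. *Sema3g*, a secreted semaphorin, was at 53.4, 2.75 and 6.11 CPM in the young runs and 137, 181 and 483 CPM in the old runs. Its ratio was 3.60 over all SEC, while within E7 it was lower with runs apart (-3.32), and there 61.4% of the young counts were in 1 cell. Without the top cells the 2 ratios were 4.52 and -2.70. *Jam2*, a junctional adhesion molecule, went from 21.3 to 245 CPM, and *Col18a1*, the basement membrane collagen that yields endostatin, from 16.96 to 177 CPM. *Plcb1*, a phospholipase C that acts downstream of receptors coupled to G proteins, had a ratio of 3.08 (3.81 without the top cells). *Sema7a*, a membrane-anchored semaphorin, had 2.96, *Syne1*, which links the nucleus to the cytoskeleton, 2.87, and *Sox13*, a transcription factor, 2.81. *Podxl*, a sialomucin of the luminal surface, rose from 80.9 to 498 CPM. These 8 are guide genes of the clusters, and within E7 none of them was past the fold upward with runs apart. *Efr3b*, which anchors a lipid kinase at the plasma membrane, had 3.31 and, within E7, 1.68 with overlapping runs. In E7 65.0% of its old counts were in 1 cell, and its ratio there was 0.50 without the top cells.

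*Ciapin1* and *Zfp574* were the increases that were as large within E7. *Ciapin1*, which assembles iron-sulfur clusters in the cytosol, was at 11.6, 16.4 and 0.291 CPM in the young runs and 67.1, 43.4 and 102 CPM in the old runs. In E7 it was carried by 5 of 59 young and 16 of 44 old cells. *Zfp574*, a zinc finger gene, was at 11.3, 6.68 and 4.36 CPM in the young runs and 26.7, 102 and 49.2 CPM in the old runs. It was carried by 7 young and 14 old E7 cells. The runs of the ages did not overlap for either gene, in all SEC or in E7. Counting without strand cannot tell *Ciapin1* reads from those of *Coq9*, which overlaps it on the other strand.

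The 12 largest decreases, in contrast, were all at least 2-fold lower within E7 too, 8 of them with runs apart. *Papln*, an extracellular matrix glycoprotein, was the one most widely carried. It was at 202, 116 and 215 CPM in the young runs and 25.6, 47.3 and 58.3 CPM in the old runs, and in 62.9% of young (50.5 to 74.1%) and 39.4% of old cells (28.03 to 51.7%). Its ratio was -2.005 over all SEC and -1.96 in E7. *Polr3k*, a subunit of RNA polymerase III, was at 33.2, 50.3 and 36.4 CPM in the young runs and 3.53, 16.6 and 2.63 CPM in the old runs. *Stau2*, which binds double-stranded RNA and takes part in RNA transport, was at 84.6, 40.6 and 20.4 CPM and then 11.9, 1.99 and 13.9 CPM. No old run of these 3 genes reached a young run. *Zbtb34* (-2.19), *Fam188b* (-2.13), *D730045B01Rik* (-1.90), a long noncoding RNA, *Sccpdh* (-1.89) and *Vwa9* (-1.88) completed the set together with *Gid4* (-2.35), the substrate receptor of a ubiquitin ligase, which shares its position with *Atpaf2* on the other strand.

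The other 3 decreases, *Ibsp*, *Igf1* and *C1ra*, were set beside the mesenchymal list, whose sum was lower in old SEC too. *Ibsp*, which encodes bone sialoprotein, was at 1127, 1121 and 851 CPM in the young runs and 454, 6.29 and 126 CPM in the old runs. *Igf1*, a growth factor, was at 30.9, 75.7 and 17.6 CPM and then 15.1, 0.921 and 1.17 CPM, and *C1ra*, a protease of the complement cascade, went from 61.8 to 14.3 CPM. Their ratios were -2.34, -2.62 and -2.04. After cells with mesenchymal or leukocyte genes were left out, the log2 ratio of *Ibsp* was -3.65, the log2 ratio of *Igf1* was -2.96 and the log2 ratio of *C1ra* was -2.54. Without E1 cells the ratios of the 3 genes were -2.92, -1.96 and -1.04. Within E7 they were -2.42, -1.58 and -1.73, all with overlapping runs, and *Ibsp* was at 161 CPM in young and 29.3 CPM in old cells. The 3 genes were thus lower with and without those cells, by amounts that depended on which cells were left out. In old SEC 69.6% of the *Ibsp* counts were in 1 cell, and its ratio was -3.66 without the top cell of each age. *Ibsp* and *Igf1* are guide genes.

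Sinusoidal identity genes were slightly lower. Of 20 fixed markers, 18 passed the filter and 16 of these had a ratio below 0, with a median of -0.34, against 0.05 over all genes. Between runs of the same order the median was 0.02, -0.53 and -0.82, and within E7 it was -0.11. Of the 20 genes, 12 are guide genes. *Stab2*, the scavenger receptor for hyaluronan, was at 6359, 7865 and 7293 CPM in the young runs and 6800, 5159 and 5559 CPM in the old runs. Within E7 it was at 8249 and 8759 CPM. *Flt4*, the receptor for VEGF-C, was at 2035 CPM in young and 2100 CPM in old E7 cells, and *Plvap*, of fenestral diaphragms, at 2778 and 3015 CPM. Of the 18 genes, 6 had a ratio above 0 in E7, and the sum of the list there was 37163 and 34209 CPM, against 32998 and 25034 CPM over all SEC. The decline of sinusoidal genes was thus smaller within E7, whose cells were assigned to it partly by these genes.

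*Adamts5* was the sinusoidal gene that fell past the fold. This gene encodes a protease that cleaves aggrecan and versican and lies on chromosome 16 (85856173 to 85901828, minus strand, GRCm38). It was at 1686, 1555 and 1502 CPM in the young runs and 634, 379 and 384 CPM in the old runs. It was carried by 69 of 70 young (98.6%, 92.3 to 100%) and 44 of 71 old cells (61.97%, 49.7 to 73.2%), and the median cell had 1256 CPM in young and 127 CPM in old SEC. Within E7 the level was 2075, 1715 and 1707 CPM in the young runs and 774, 657 and 720 CPM in the old runs, a ratio of -1.33 after -1.75 over all SEC. The loss was thus present in every old run, within E7 as well. It is a guide gene of the clusters.

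*Fcgr2b* was the sinusoidal gene that rose past the fold, and it is not a guide gene. It encodes the inhibitory receptor for the constant part of IgG, which in sinusoids takes up immune complexes, and lies on chromosome 1 (170958617 to 170976547, minus strand). It was at 136, 61.4 and 205 CPM in the young runs and 526, 250 and 231 CPM in the old runs. Carrying cells numbered 27 of 70 young (38.6%, 27.2 to 50.97%) and 51 of 71 old (71.8%, 59.9 to 81.9%), and 41.4% and 75.7% after thinning. Both the level and the share of cells were higher in old SEC, although the lowest old run was close to the highest young run. Within E7 the ratio was 1.27, with 26 of 59 young and 37 of 44 old cells carrying it, while the third young run (237 CPM) lay above the second old run (211 CPM).

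**Figure D3:**
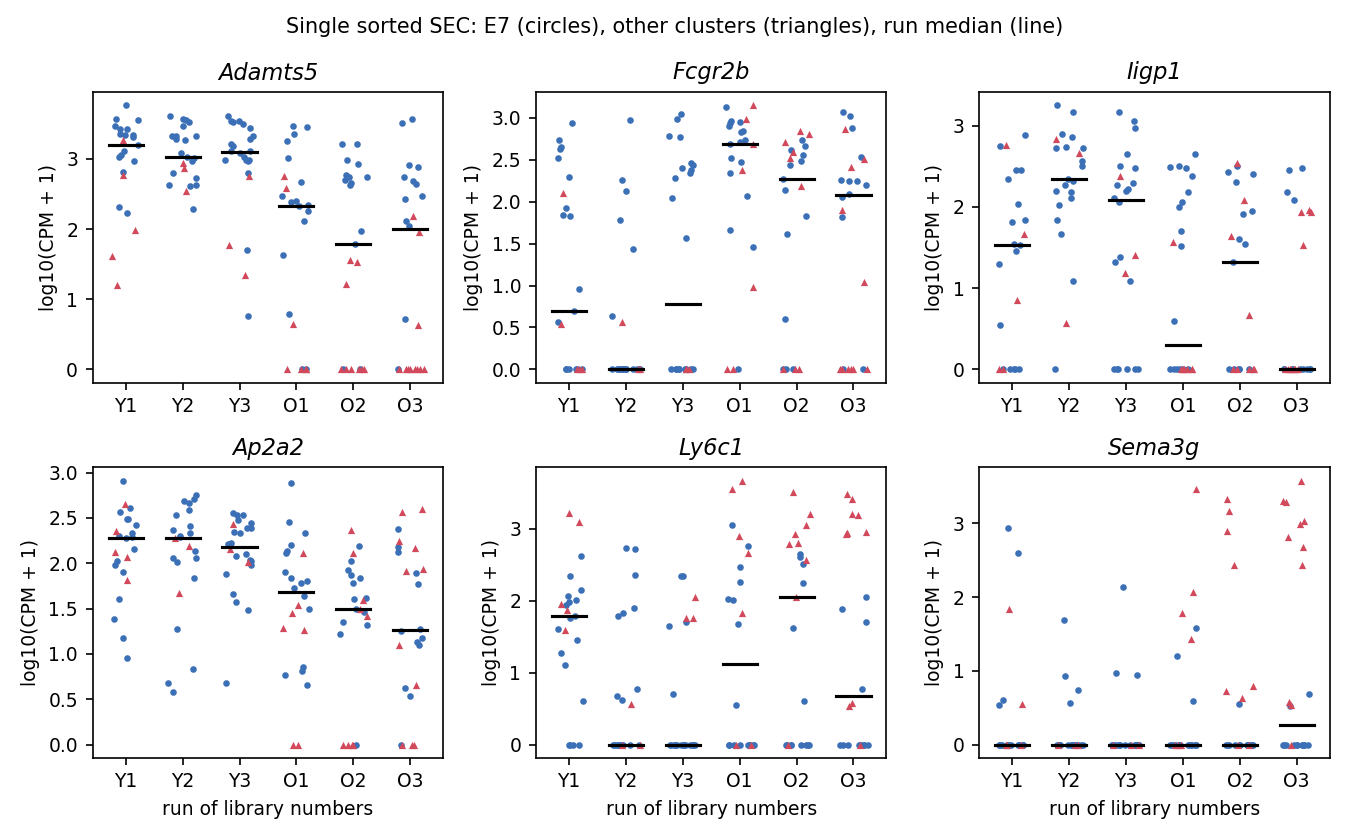
Level of 6 genes in each sorted SEC, as log10 of CPM plus 1 (y axis), by run of library numbers (x axis), with E7 cells as circles, cells of other clusters as triangles and a line at the run median. *Adamts5*, *Iigp1* and *Ap2a2* are lower and *Fcgr2b* is higher in E7 cells of the old runs, whereas high *Sema3g* values are mainly cells of other clusters.

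The same rule of size was applied within E7. The increases there were *Mgp* (3.31), the matrix Gla protein that inhibits calcification, *Ciapin1* (3.28), *Tubgcp5* (3.12), a subunit of the gamma-tubulin ring complex, *Zfp574* (2.83), *Uchl4* (2.20), a ubiquitin hydrolase gene inside the locus of *Map2k1*, and *Pxmp2* (2.14), a channel of peroxisomes. *Mgp* was at 8.57, 53.4 and 22.1 CPM in the young and 471, 169 and 155 CPM in the old E7 runs. *Tubgcp5* was at 1.25, 8.65 and 2.53 CPM and then 69.1, 13.5 and 40.9 CPM. Neither gene overlapped between the ages in E7. Over all SEC the ratio of *Mgp*, a guide gene, was 0.70, with 26.2% of the young counts in 1 cell. It was 3.13 without E1 cells and 3.27 without cells that carried mesenchymal or leukocyte genes, and 3.92 within E7 without the top cells.

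The decreases in E7 were *Dcaf15* (-2.88), a substrate receptor of a cullin ubiquitin ligase, *Gid4* (-2.87), *Polr3k* (-2.67), *Commd2* (-2.60), *Stau2* (-2.49) and *Tlr4* (-2.47). *Dcaf15* was at 34.6, 35.1 and 17.3 CPM in the young and 3.17, 1.88 and 4.26 CPM in the old E7 runs. *Commd2*, of a family that helps to recycle membrane proteins from endosomes, was at 28.6, 29.2 and 46.5 CPM and then 3.693, 4.04 and 7.67 CPM. It was carried by 22 of 59 young and 4 of 44 old E7 cells. The old runs of both genes were far below the young ones in E7, while over all SEC their ratios were -1.05 and -0.74 with overlapping runs, and that of *Dcaf15* was -1.81 without the top cell of each age.

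Endocytic receptors as a group were close to all genes. Of 25 scavenger and endocytic receptor genes, 20 passed the filter, with a median of -0.22 over all SEC and -0.18 in E7. Over all SEC *Fcgr2b* was the 1 past the fold with runs apart, beside 4.51% of all genes that were higher. *Stab1*, a partner of *Stab2* in scavenging, was at 2088 and 2087 CPM in E7, and *Mrc1*, the mannose receptor, at 905 and 795 CPM. In E7 no receptor was past the fold with runs apart. The machinery of clathrin, caveolae and endosomes had a median of -0.09 over 38 genes, all of which passed the filter, with 1 gene higher and 2 lower with runs apart, beside 4.51% and 2.59% of all genes.

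The 2 lower genes both act in clathrin-coated pits. *Ap2a2*, a large subunit of the adaptor that gathers cargo there, was at 213, 205 and 176 CPM in the young runs and 103, 59.4 and 97.8 CPM in the old runs. It was carried by 92.9% of young (84.1 to 97.6%) and 74.6% of old cells (62.9 to 84.2%), and the median cell had 164 CPM in young and 33.4 CPM in old SEC. *Itsn1*, a scaffold of coated pit assembly, was at 105, 66.8 and 62.97 CPM and then 31.5, 44.2 and 26.8 CPM, and shares part of its position with *Atp5o* on the other strand. Both genes were also lower in E7 with runs apart, with ratios of -1.21 and -1.95. Clathrin heavy chain itself, *Cltc*, was at 599 and 520 CPM. *Cav2*, a caveolin, rose from 25.4 to 69.9 CPM with runs apart, and in E7 *Snx1*, a sorting nexin of the retromer, was higher, at 66.8 CPM in young and 135 CPM in old cells.

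Lysosomal genes had a median of -0.06 over 30 genes and 0.11 in E7. *Mcoln1*, a calcium channel of the lysosome membrane, was at 45.5, 43.1 and 18.5 CPM in the young runs and 103, 110 and 82.4 CPM in the old runs. In E7 it had 37.8 and 128 CPM, and *Hexa*, a lysosomal hexosaminidase, 94.0 and 199.8 CPM. These 2 of 29 genes were past the fold upward in E7 with runs apart, beside 3.01% of all genes there, whereas the most abundant member, the protease *Ctsl*, was at 6781 and 7013 CPM.

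Adhesion molecules for leukocytes moved apart from each other. Of 20 genes 18 passed the filter and 6 were higher with runs apart (beside 4.51% of all genes), with a median of 0.26, while 1 gene (*Cd99*) was not found in the table. *Vcam1*, the most abundant and a ligand of the integrin VLA-4, was at 2847, 3873 and 2815 CPM in the young runs and 2423, 2022 and 1487 CPM in the old runs. *Sele* and *Selp*, the E- and P-selectins, went from 1178 to 716 CPM and from 697 to 411 CPM. All old runs of these 3 genes lay below the young runs, but the ratios of -0.68, -0.72 and -0.76 did not reach 2-fold, and they were -0.44, -0.27 and -0.43 in E7. All 3 are guide genes.

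The higher adhesion genes included *Madcam1*, a ligand of the gut-homing integrin of lymphocytes. It was at 1.75, 0.917 and 0 CPM in the young runs and 36.3, 36.8 and 43.6 CPM in the old runs, and was carried by 2 of 70 young (2.86%, 0.348 to 9.94%) and 9 of 71 old cells (12.7%, 5.96 to 22.7%). All 9 old cells were in E7, where *Madcam1* was at 0.389 and 62.4 CPM, and AEC of both ages had no count. A small set of old E7 cells thus carried a gene that young SEC nearly lacked. *Podxl*, *Cd200*, *Pvr*, *Spn* and *Jam2* were the other 5, and 90.3% of the old *Spn* counts were in 1 cell, and its ratio went from 3.35 to 0.85 without the top cell of each age. In E7 *Mcam*, which encodes CD146, was higher (126 and 264 CPM), and *Cd200*, an immune inhibitory ligand, was lower (85.0 and 19.2 CPM).

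Genes of hemostasis and vascular tone had a median of 0.25 over 21 of 25 genes, with 3 higher with runs apart, beside 4.51% of all genes. *Nos3*, the endothelial nitric oxide synthase, was at 55.4, 51.3 and 52.5 CPM in the young runs and 108, 79.5 and 172 CPM in the old runs. In E7 it was at 54.7 and 54.9 CPM. *Entpd1*, which degrades extracellular ATP, went from 95.9 to 218 CPM, and *F10*, coagulation factor X, had 73.7% of its old counts in 1 cell, and its ratio went from 2.13 to 0.73 without the top cell of each age. *F2r*, the thrombin receptor, was higher in E7, at 148 and 321 CPM, while *Vwf*, von Willebrand factor, was at 66.3 and 8.28 CPM there, a ratio of -2.86 that was -0.63 without the top cell of each age. Over all SEC *Vwf* was instead at 56.3 and 133 CPM with overlapping runs. That ratio was 1.23, and 2.76 without the top cells. *Tfpi*, the inhibitor of the tissue factor pathway and the most abundant member, was at 4210, 4199 and 4333 CPM in the young runs and 3536, 2635 and 1796 CPM in the old runs, so that the runs did not overlap below a 2-fold difference. In E7 *Entpd1* was at 95.2 and 140 CPM. *Nos3*, *Entpd1* and *Vwf* are guide genes, so that their levels within E7 were partly set by the clustering.

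Inflammatory gene groups were near the median of all genes. The 25 of 34 NF-kB target genes that passed had a median of -0.12 (-0.25 in E7), with 0 past the fold with runs apart, and *Ccl5*, *Il1a* and *Tnf* had no count. In E7 *Birc3*, an inhibitor of cell death induced by NF-kB, was higher, at 41.1, 78.2 and 71.7 CPM in the young and 151, 127 and 105 CPM in the old runs. The 26 of 29 genes for IL-1 and other cytokine receptors and regulators had a median of 0.02. *Il1r1*, the signaling receptor for IL-1, was at 75.1 CPM (71.5 to 78.8) in young and 83.3 CPM (79.4 to 87.4) in old SEC, and was carried by 48.6% and 45.1% of cells. The runs overlapped, and no difference past the fold was seen for this receptor.

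Of the cytokine-related genes, 2 were at least 2-fold higher and 3 lower, and the 2 of these with runs apart were lower in old SEC, beside 2.59% of all genes. *Tlr4*, the receptor for bacterial lipopolysaccharide, was at 28.7, 30.0 and 89.9 CPM in the young runs and 5.42, 21.6 and 28.1 CPM in the old runs. In E7 it was carried by 16 of 59 young and 5 of 44 old cells. *Il10ra*, a chain of the IL-10 receptor, went from 42.8 to 19.2 CPM. *Il6st*, the signal-transducing chain shared by IL-6 family receptors, was at 4034, 4011 and 3786 CPM in the young runs and 3586, 2070 and 1994 CPM in the old runs. The old runs were lower for all 3, by less than 2-fold for *Il6st*, a guide gene (-0.61).

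Interferon response genes did not move together. Of 30 genes 27 passed the filter, with a median of -0.04, 3 higher and 1 lower with runs apart, beside 4.51% and 2.59% of all genes. *Iigp1*, an interferon-induced GTPase that attacks the vacuoles of pathogens, was at 132, 409 and 247 CPM in the young runs and 94.1, 78.6 and 52.1 CPM in the old runs. It was carried by 75.7% of young (63.99 to 85.2%) and 43.7% of old cells (31.9 to 55.95%), and its ratio was -1.80 over all SEC and -1.48 in E7, with runs apart in both. *Irf7*, the factor that amplifies type I interferon, was at 17.9, 18.72 and 5.67 CPM and then 98.3, 87.0 and 19.3 CPM, yet 13 cells carried it at each age. *Usp18*, which removes ISG15 from proteins, was at 13.2, 12.6 and 13.1 CPM and then 15.6, 39.7 and 35.6 CPM, and was also higher in E7 (11.5 and 35.99 CPM). *Ifit3*, another induced gene, was lower in E7 (13.5 and 2.32 CPM), with 63.3% of the old counts in 1 cell. *Ifit1* was carried by 2 young and 5 old cells. The most abundant member, *Ifitm3*, was at 512 and 499 CPM. Single genes of the response thus moved in opposite directions while the list stood still.

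Antigen presentation genes had a median of 0.19 over 20 of 22 genes. *H2-Ab1*, the beta chain of an MHC class II molecule, was at 49.4, 67.04 and 13.8 CPM in the young runs and 238, 152 and 102 CPM in the old runs. It was carried by 5 of 70 young (7.14%, 2.36 to 15.9%) and 23 of 71 old cells (32.4%, 21.8 to 44.5%), with 52.5% of the young and 38.2% of the old counts in 1 cell. In E7 it was carried by 3 of 59 young and 11 of 44 old cells. More old cells thus carried a class II gene, in E7 as well, although its E7 runs overlapped. The invariant chain *Cd74* was carried by 3 young and 8 old cells. Class I genes were similar, with *H2-K1* at 1744 and 1930 CPM and *H2-D1* at 3443 and 3461 CPM, and *Cd1d1*, which presents lipids, was higher in E7 (5.11 and 14.0 CPM). Immediate early genes had a median of 0.10 over 22 genes and 0 past 2-fold.

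Angiocrine ligands, the factors that endothelium releases or displays to other cells, had a median of -0.06 over 31 of 40 genes, with 2 higher (*Dll4* and *Tgfb2*) and 3 lower (*Igf1*, *Igfbp3* and *Esm1*) with runs apart, beside 4.51% and 2.59% of all genes. *Cxcl12*, which retains hematopoietic cells in marrow, was at 5192, 5899 and 5447 CPM in the young runs and 3373, 3214 and 4124 CPM in the old runs. In E7 it was at 1191 and 748 CPM with overlapping runs, and it is itself the most abundant gene of the mesenchymal list. The part of mesenchymal RNA in its level was not tested. *Kitl*, the stem cell factor gene, was at 119 and 169 CPM over all SEC and 32.1 and 14.7 CPM in E7. *Bmp2*, a bone morphogenetic protein, was lower in E7, at 105, 35.1 and 57.8 CPM in the young and 16.7, 3.50 and 13.9 CPM in the old runs. *Esm1*, a proteoglycan of sprouting endothelium, went from 137 to 39.6 CPM, but its ratio was 0.86 in E7 and 0.80 without E1 cells, so the direction depended on the cells kept. It is a guide gene.

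Receptors for growth signals were close to all genes. The list for VEGF, angiopoietin and sphingosine 1-phosphate signaling had a median of 0.19 over 26 of 27 genes and 0.30 in E7. Of these, 3 were at least 2-fold higher and 1 lower, and 1 each way had runs apart, beside 4.51% and 2.59% of all genes. *Kdr*, the main VEGF receptor, was at 1535 and 1581 CPM, and *Flt1*, which sequesters VEGF, at 733, 716 and 526 CPM in the young runs and 1202, 984 and 924 CPM in the old runs. For *Flt1* the runs did not overlap, at a ratio of 0.65. Notch and BMP targets and receptors had a median of 0.09 over 22 of 24 genes and 0 past the fold with runs apart. Junction and barrier genes had 0.19 over 29 of 32, with *Jam2* and *Gja4* higher with runs apart, beside 4.51% of all genes. Of these 29 genes 22 had a ratio above 0. The list summed to 13525, 13454 and 12437 CPM in the young runs and 15198, 15102 and 14644 CPM in the old runs. *Cldn5*, the tight junction claudin of endothelium, was at 2788 and 2952 CPM.

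Basement membrane and matrix genes had a median of 0.19 over 32 of 34 genes. *Lama3*, *Fn1* and *Col18a1* were higher and *Col6a1* was lower with runs apart, beside 4.51% and 2.59% of all genes. *Fn1*, fibronectin, was at 1.21, 0.786 and 1.45 CPM in the young runs and 1.49, 86.4 and 111 CPM in the old runs, and at 1.28 and 1.08 CPM in E7. The first old run barely exceeded the young runs, and *Fn1* is a guide gene, so that its level within E7 was partly set by the clustering. *Col6a1*, a chain of microfibrillar collagen, had a ratio of -2.43 (-3.31 without the top cells), 0.33 without cells that carried mesenchymal or leukocyte genes, and -4.03 in E7 (21.6 and 0.387 CPM) without runs apart. *Sparc*, a collagen-binding protein and the most abundant member, was at 4394, 3495 and 3616 CPM in the young runs and 2515, 3200 and 2867 CPM in the old runs, a ratio of -0.43 with no overlap. The basement membrane collagens *Col4a1* (496 and 550 CPM) and *Col4a2* (523 and 618 CPM) overlapped between the ages.

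Gene groups of arrest, death and stress were flat. The list of p53, senescence and cell cycle arrest genes had a median of -0.15 over 22 of 24 genes, and *Cdkn2a*, the main senescence locus, had no count at either age. *Cdkn1a*, which encodes p21, was at 157, 259 and 481 CPM in the young runs and 122, 205 and 294 CPM in the old runs, with overlap. *Gadd45a*, a DNA damage gene, went from 3.74 to 11.5 CPM with runs apart. Apoptosis and necroptosis genes had a median of -0.11 over 32 of 35 genes. *Fas*, the death receptor, was at 11.5, 4.45 and 14.5 CPM in the young runs and 48.4, 44.3 and 42.6 CPM in the old runs, and was carried by 5 of 70 young (7.14%, 2.36 to 15.9%) and 19 of 71 old cells (26.8%, 16.9 to 38.6%). *Bcl2l1*, which encodes the survival protein BCL-XL, was lower in E7, at 81.9, 34.1 and 40.1 CPM in the young and 17.9, 7.54 and 14.8 CPM in the old runs. In each of these 2 lists 1 gene was higher with runs apart over all SEC, beside 4.51% of all genes, and in E7 *Fas* had overlapping runs (11.7 and 21.8 CPM overall there).

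Cell cycle genes had a median of 0.06 over 15 of 26 genes, and heat shock genes 0.03 over 25 of 26, with *Hsf1*, the regulator of the heat shock response, lower (81.4 and 37.5 CPM). Antioxidant and iron handling genes had 0.01 over 30 of 31, and in E7 *Gsr*, glutathione reductase, was higher, at 23.1 and 57.04 CPM. None of these lists moved as a whole.

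Metabolic lists differed by small amounts. Genes that handle fatty acids and lipoproteins had a median of 0.52 over 28 of 30 genes, the only list of function with a median of at least 0.5 in size, and 0.29 in E7. *Scd2*, a fatty acid desaturase, went from 11.4 to 40.4 CPM, and *Tcf15*, a factor of fatty acid uptake in endothelium, had 52.4% of its old counts in 1 cell. *Cd36*, the fatty acid translocase, was at 859, 1088 and 667 CPM in the young runs and 1146, 1330 and 1033 CPM in the old runs, with overlap, and *Fabp4*, the most abundant, at 6896 and 6470 CPM. Glycolysis and hypoxia genes had 0.26 over 25 of 28, with *Bnip3*, of mitochondrial turnover, higher in all SEC (5.02 and 12.9 CPM) and in E7. Of these 25 genes 21 had a ratio above 0. The list summed to 3427, 3462 and 3340 CPM in the young runs and 3830, 4329 and 4424 CPM in the old runs. Oxidative phosphorylation genes had -0.04 over all 53, with *Ndufv1*, of complex I, higher in E7 (106 and 235 CPM). Cytosolic ribosomal protein genes had -0.20 over 73 of 88, 53 of them below 0, and a summed level of 6305, 6078 and 6533 CPM in the young runs and 5309, 5605 and 5465 CPM in the old runs. *Rpl12* was higher and *Rpl5* lower. Ribosomal protein RNA was thus lower in every old run by a small margin.

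Pericyte and smooth muscle genes, all 12 of them guide genes, had a median of 1.76 over 8 genes that passed, with -0.15, 0.056 and 2.93 between runs of the same order, and -0.10 in E7. The higher median of the list thus lay in the last pair of runs. *Rgs5*, a regulator of G protein signaling in pericytes, was at 0, 0.262 and 1.02 CPM in the young runs and 76.6, 63.1 and 469 CPM in the old runs, with 55.4% of the old counts in 1 cell (a ratio of 7.17, and 6.34 without the top cells). The intermediate filament gene *Des* was the other gene higher with runs apart. The list's sum was 2285, 2432 and 2517 CPM in the young runs and 2179, 2201 and 3213 CPM in the old runs, with *Abcc9*, which sinusoidal cells also expressed, the most abundant. Pan-endothelial genes had a median of 0.11 over 20 genes. Only *Sox7*, a transcription factor of vessel development, was past the fold (50.4 and 123.1 CPM), with runs apart, beside 4.51% of all genes.

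Over all 36 lists, 758 of 882 different genes passed the filter, and 43 were higher and 18 lower with runs apart, beside 4.51% and 2.59% of all genes. The median of a list reached 0.5 in size in 9 lists over all SEC and 4 in E7. Apart from fatty acid handling, those were the arteriolar list and markers of pericytes and blood lineages, and in E7 they were the erythroid, neutrophil, macrophage, and B and T cell lists. Most groups of endothelial function thus lay close to the median of all genes, and changes past the fold within them were those of single genes. Some whole lists also shifted slightly. Sums of glycolysis and junction genes were higher in every old run than in any young run. Those of ribosomal protein genes were lower in every old run.

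**Figure D4:**
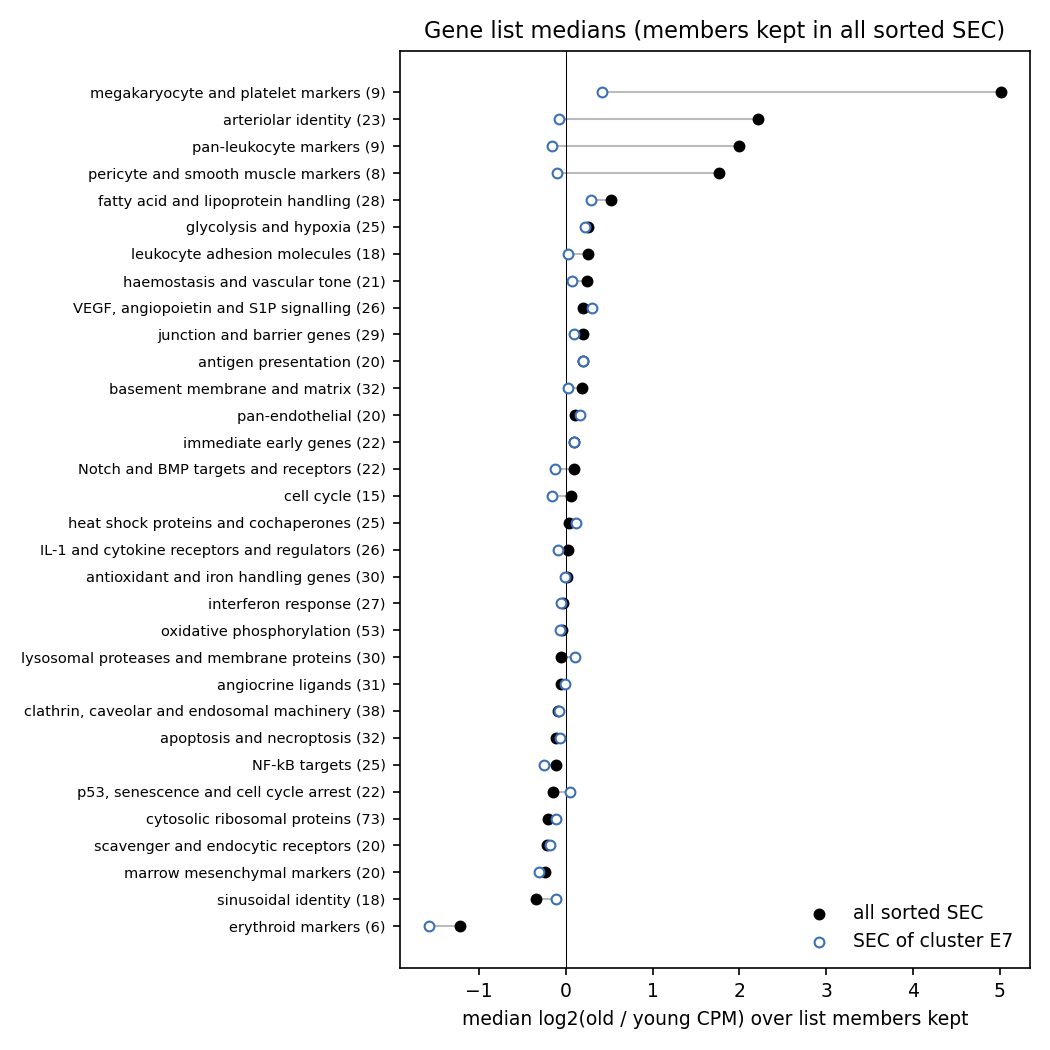
Median log2 old over young ratio of the genes of each list that passed the filter (x axis), over all sorted SEC (filled) and in cluster E7 (open), with the number of genes in brackets, for lists with at least 5 such genes. The arteriolar list is at 2.22 over all SEC and -0.075 in E7, while most functional lists lie near 0 in both.

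Endosteal AEC of the library numbers that followed, also 1 sample an age, gave values to set beside those of SEC. The arteriolar list had a median of 0.12 in AEC, and the sinusoidal list -1.44, with sums of sinusoidal genes of 8006 CPM in young and 4605 CPM in old AEC. Clusters E6 and E7 held 5 and 2 of the 24 young AEC and 1 and 0 of the 23 old AEC, and the part of these cells in the AEC values was not tested. *Adamts5* was at 85.5 and 10.8 CPM in AEC and *Fcgr2b* at 116 and 26.9 CPM, so that *Fcgr2b* was lower in old AEC and higher in old SEC. In AEC *Adamts5* was carried by 25% of young and 13.0% of old cells, and *Fcgr2b* by 16.7% and 8.70%. *Mctp1* was at 7.73 and 56.8 CPM, *Zfp574* at 10.0 and 57.2 CPM and *Mgp* at 40.7 and 307 CPM, higher in old cells of both populations. Their carrying shares in young and old AEC were 20.8% and 30.4%, 12.5% and 34.8%, and 16.7% and 30.4%. Over all SEC, however, the ratio of *Mgp* was 0.70 with overlapping runs. *Ciapin1*, in contrast, was at 57.04 and 9.74 CPM in AEC, carried by 16.7% of young and 4.35% of old cells. The differences between AEC and SEC were not tested.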

How the data were processed

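Single cells were profiled with a plate-based protocol derived from Smart-Seq2. For alignment the authors used GSNAP (2015-09-29) and the mouse assembly GRCm38.p4, and Ensembl 81 supplied the gene models. HTSeq, whose version is not given in the sources used here, made the counts per gene without regard to strand, and the raw counts were deposited. Of 661 columns, 188 were used and the 473 other per-sample columns were not used here. The study states 70 young and 71 old SEC, the same numbers as in the table. Its filter was worded by depth (100000 reads) together with mitochondrial share (20%). The SEC of lowest depth, an old cell with 71320 nuclear counts, was kept, and the highest mitochondrial share of an old SEC was 8.10%.

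The 270 repeated symbols were summed with their first entry and 37 mitochondrial genes were left out of the CPM, which used 45771 nuclear genes. Genes needed at least 100 counts over at least 5 cells, and 1 CPM was added before log2. Named genes were the 12 largest increases and the 12 largest decreases (6 each way in E7) among genes with at least 20 CPM in an age, carried by at least 25% of its cells, at least 2-fold different with runs apart, and with no cell holding over 25% of the counts of the higher age. To these were added the sort markers, list members past the fold with runs apart and the most abundant members of each list. Further members are named as examples chosen after their values were seen. The members and lists were chosen with earlier results of these data known.

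No test was made, since each age was 1 sample. Alternatives were median-ratio scaling, the mean of CPM over cells, thinning to 100000 counts, a pseudocount of 0.1 CPM, other filters and folds, and leaving out clusters, number blocks, single cells or cells with markers of other lineages. Leaving out cells with at least 9 megakaryocyte or at least 7 pan-leukocyte genes, and the alternatives within E7, were added after seeing the data. Doublets were not called. Gene positions came from GENCODE M21 (GRCm38), which matched 99 of 101 named genes by symbol. Without strand, reads of overlapping and antisense genes cannot be told apart. The steps were checked on simulated data. These held counting error only, without clusters or differing profiles among cells of an age. They therefore do not show how often genes here would pass the rule by chance. Software was matplotlib 3.10.9 for the figures, and scipy 1.17.1, pandas 2.3.3 and numpy 2.4.6 under Python 3.11.15 for the values.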

Additional observations from a re-analysis of the deposited data

Results flagged for a closer look

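Named genes were looked at that were at least 2-fold different between ages in sorted SEC with runs apart and had at least 20 CPM and 25% carrying cells in an age of AEC. For 4 of these, the AEC differed at least 2-fold in the opposite direction. The number of genes that met the rule is not given here, so the 4 cannot be read as a share. Others that met it moved the same way in both populations. Among these were *Mctp1* (2.73 in AEC), *Zfp574* (2.40), *Papln* (-4.55) and *Adamts5* (-2.87). *Foxc1* had a log2 old over young ratio of 2.44 in AEC and -1.09 in SEC, where it was -0.50, -1.46 and -1.23 between runs of the same order. *Irf7* was at -1.04 in AEC and 2.18 in SEC (2.39, 2.16 and 1.61). *Mcoln1* was at -1.86 in AEC and 1.41 in SEC (1.16, 1.33 and 2.10). *Rgs5* was at -1.04 in AEC and 7.17 in SEC (6.28, 5.67 and 7.86), with 55.4% of the old SEC counts in 1 cell. Each age of AEC was a single run of library numbers, and the difference between the populations was not tested for any of the 4 genes.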

How the results depend on the processing

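The 12 largest increases and the 12 largest decreases over all SEC stayed at least 2-fold in the same direction under each alternative run for them except E7 cells only, where 6 of the 12 increases were at least 2-fold, 9 kept their direction and all 12 decreases were at least 2-fold lower. Runs stayed apart for all 12 increases except in E7, where 2 kept them. Of the 12 decreases, 9 kept runs apart without E1 cells, 8 in E7, and 11 under each of mean CPM, thinning and the stricter filter. Median-ratio scaling, mean CPM over cells, thinning, a pseudocount of 0.1 CPM, no filter, and leaving out E1 cells or cells with markers of other lineages moved the counts of higher (585) and lower (336) genes with runs apart by less than 1.5 times. E7 cells only gave 348 higher genes.

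A number block is a young and an old run of the same order. Without block 1, 2 or 3 the higher genes numbered 1347, 1083 and 1101 and the lower genes 840, 863 and 934, and in E7 there were 862, 853 and 901 higher and 1057, 1002 and 1013 lower genes, since with fewer runs it is easier for them to lie apart. A stricter filter (1000 counts and 10% of the cells of an age), under which fewer genes were counted, gave 255 and 136 genes. At least 4-fold gave 232 and 89 genes, and at least 1.5-fold gave 547 lower genes.

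The sinusoidal median (-0.34) was -0.11 in E7, -0.53 without block 1 and -0.22 without block 3. The arteriolar median (2.22) was -0.075 in E7, 2.32 for mean CPM, 2.39 after thinning, 2.49, 1.93 and 1.31 without blocks 1, 2 and 3, 1.497 without cells with leukocyte or mesenchymal markers, 1.29 without cells with megakaryocyte or many leukocyte markers, 2.32 with no filter and 1.34 with the stricter one. The pericyte median turned to -0.10 in E7, -0.082 without block 3 and -0.16 without cells with leukocyte or mesenchymal markers. The pan-leukocyte median turned to -0.16 in E7 and -0.21 without block 2, and that of B and T cell genes to -0.064 with no filter.

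In E7 the log2 ratio changed sign for *Sema3g* (-3.32), *Vwf* (-2.86), *Cd200* (-2.09), *Podxl* (-1.001), *Lama3* (-0.75), *Tgfb2* (-0.69), *Efnb2* (-0.64), *Col18a1* (-0.35), *Rgs5* (-0.23), *Stmn2* (-0.22), *Laptm5* (-0.15), *Fn1* (-0.13), *Gja5* (-0.11) and *Esm1* (0.86). Without E1 cells *Esm1* was at 0.80. Without cells with leukocyte or mesenchymal markers *Esm1* was at 2.85, *Hp* at 1.02, *Col6a1* at 0.33 and *Col1a2* at 0.035, and without cells with megakaryocyte or many leukocyte markers *Laptm5* was at -0.023. For these changes the cause was not tested. Of the other alternative values of the 95 named genes, 379 lay within the interval of counting error and 646 outside it, with the same sign or from a ratio below 2-fold.

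With a number block alone, the share was 0 for young E6 cells in blocks 2 and 3, for old E2 cells in blocks 1 and 2, for old E3 cells in block 1 and for old E5 cells in block 2, where few cells were at stake. No paired analysis was possible because the number in a label counts cells and the comparison has no test. The study took the cells of its plate-based data from more than 1 mouse of each age. The labels do not say which mouse a cell came from, so differences between mice and between ages cannot be told apart. The depth, a median of 314844 and 302201 counts per cell, leaves few counts in a cell for genes under 20 CPM, and runs of 24 cells give wide intervals for clusters of few cells.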
